A study of Rattus norvegicus with 6 samples.

Results

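The genes described here are 10 endothelial identity and leukocyte adhesion genes of the rat intervertebral disc, taken by name from a table of 30562 genes. They fall into 6 genes that mark endothelial cells (Pecam1, Cdh5, Kdr, Flt1, Tek and Vwf) and 4 adhesion molecules that bind leukocytes (Vcam1, Icam1, Sele and Selp). All 10 were found in the table and all 10 passed the filter on low counts.

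Endothelial cells line blood vessels, and the healthy disc holds few of them, since its inner parts are avascular and vessels lie mainly in the outer annulus fibrosus and along the endplates. Inflamed endothelium displays E-selectin and P-selectin, on which leukocytes tether and roll, and then ICAM-1 and VCAM-1, to which leukocyte integrins attach firmly. P-selectin is held in Weibel-Palade bodies together with von Willebrand factor, while E-selectin is made anew after cytokines such as TNF and IL-1 activate NF-κB.

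Bulk RNA was sequenced from tail discs of wild-type (WT) male Sprague-Dawley rats whose disc had been punctured by needle at 12 weeks of age. Both groups carried that injury. One group received PBS in the disc and the other AF-PTK@LEV@SPP1, a hybrid of liposomes and bacterial outer membrane vesicles whose annulus-binding peptide is released when reactive oxygen species cut its linker, and which carries an siRNA against Spp1. By the study's methods 10 μL with 1 mg/kg of siRNA was injected from 24 h after surgery, and tissue was taken at 8 weeks. The sample records instead name mice, an untreated control, 14 days of treatment, macrophages sorted from digested discs and another sequencer. The gene identifiers in the table are of rat. There are 3 libraries per group, each from another animal by the methods, and the group the records call Control is called PBS here.

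The PBS libraries held 17942989, 16565291 and 17489851 counts in replicates 1, 2 and 3, and those of AF-PTK@LEV@SPP1 held 17074981, 15560728 and 17855184. The levels below are normalized CPM, counts relative to library size after scaling by the trimmed mean of M-values (TMM), and a gene with 3 counts stood at 0.167 to 0.193 CPM before that scaling. PBS replicates 2 and 3 were near-identical. Their counts, over genes where the pair reached 20 reads, had a variance 1.33 times that of counting noise, against 51.3 to 107 times for the 5 other pairs within a group. They were therefore counted as 1 sample, which leaves n = 2 distinct PBS samples and n = 3 AF-PTK@LEV@SPP1 samples, so that a two-sided exact permutation test cannot give a p below 0.10. Means and SD below are over these distinct samples.

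The label of sorted macrophages was read against markers of other cells. The annulus collagen gene Col1a1 stood at 31887, 44697 and 45021 normalized CPM in the PBS replicates and at 64018, 45894 and 51196 in those of AF-PTK@LEV@SPP1. The cartilage collagen gene Col2a1 stood at 13858 to 31944 in the 6 libraries. Every library thus held abundant transcripts of disc matrix cells, and also of the endothelial genes below. The siRNA target Spp1 stood at 8114, 4408 and 4414 in PBS and at 8047, 6893 and 8451 in AF-PTK@LEV@SPP1. It was thus no lower under AF-PTK@LEV@SPP1 (log2 fold change 0.31, adjusted p = 0.628 from edgeR), so directions are given by label. In the study's materials the siRNA is one made for the mouse gene, and whether it acts on the rat transcript was not tested.

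Between the groups, edgeR's quasi-likelihood test on the 5 distinct samples called 175 of 15537 genes higher in AF-PTK@LEV@SPP1 (1.13%) and 400 lower (2.57%) at an adjusted p under 0.05. Of the 10 endothelial and adhesion genes, 2 were called, the selectins Sele and Selp, both lower. With the near-identical PBS libraries kept as separate samples, 8.20% of 15042 genes were called higher and 9.93% lower, and 6 of the 10 were called, all lower: Pecam1, Cdh5, Vwf, Icam1, Sele and Selp. DESeq2 on the 5 samples called 7.29% of genes higher and 9.27% lower, and of these 6 it called 5 lower, without Cdh5. With limma-voom 0.895% were higher and 2.03% lower, and of the 10 genes Sele and Selp were called. At an unadjusted p under 0.05, edgeR had 12.4% of all genes higher and 13.0% lower, and the same 6 of the 10 lower. Counts of listed genes below are to be read against these shares, and the most abundant gene of a list is the one with the highest mean over the 6 libraries, unless a group is named. For these 6 genes the distinct samples of the groups did not overlap, as was so for 45.8% of all genes tested, so that share is no result about the 10. Without AF-PTK@LEV@SPP1 replicate 2, and likewise without replicate 3, edgeR called 0 genes in all, with 3109 and 2699 genes at an unadjusted p under 0.05. Without AF-PTK@LEV@SPP1 replicate 1 it called 113, Sele and Selp among them. Without PBS replicate 1 it called 280, also with both selectins, but 1 distinct PBS sample is then left and the spread comes from AF-PTK@LEV@SPP1 alone, so nothing is read from that fit.

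**Figure D1:**
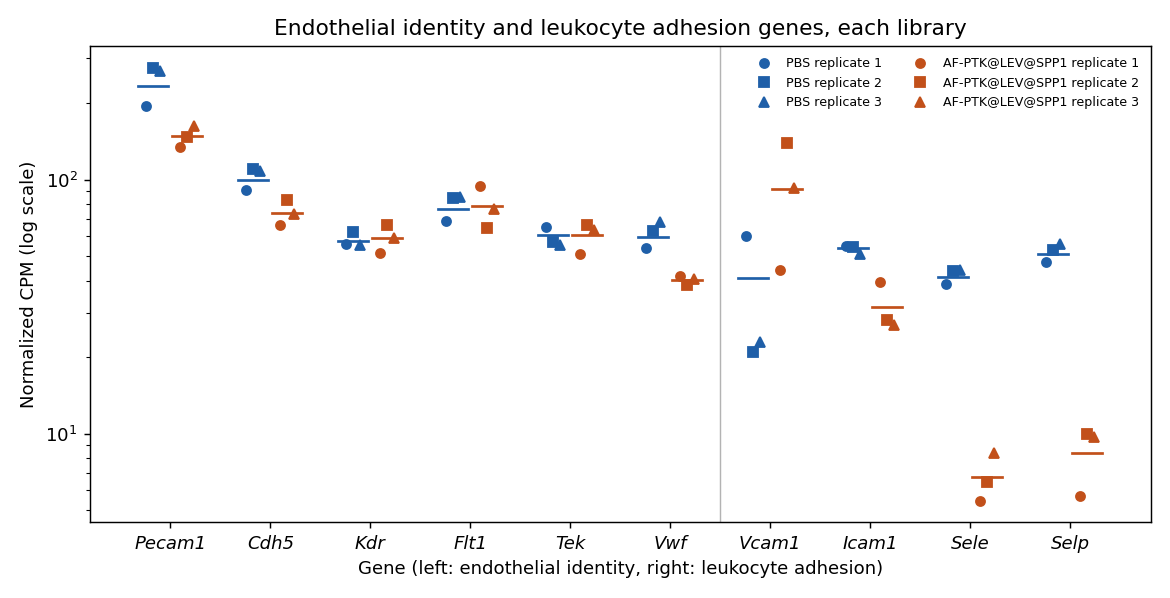
Normalized CPM (vertical axis, log scale) of the 10 genes (horizontal axis) in each library, with PBS in blue, AF-PTK@LEV@SPP1 in orange, a marker shape for each replicate number and a line at the mean over distinct samples (2 PBS, 3 AF-PTK@LEV@SPP1). Sele and Selp lie far apart between the groups, at 39.0 to 55.8 in PBS and 5.46 to 9.94 in AF-PTK@LEV@SPP1, whereas Kdr, Flt1, Tek and Vcam1 overlap.

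Pecam1 encodes CD31, an adhesion molecule at endothelial contacts that platelets and some leukocytes also carry. In PBS replicates 1, 2 and 3 its level was 195, 276 and 267 normalized CPM, and in the AF-PTK@LEV@SPP1 replicates, in the same order throughout, it was 135, 147 and 163. Each of the latter lay below each PBS library, and the means were 233 ± 54.0 (SD, n = 2) and 148 ± 14.1 (SD, n = 3). The log2 difference (AF-PTK@LEV@SPP1 minus PBS, the fitted log2 fold change) of -0.66, with a standard error of 0.19, did not pass in edgeR (adjusted p = 0.114), whereas it did with the 6 libraries kept (adjusted p = 0.0295).

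Cdh5 encodes VE-cadherin, the cadherin of endothelial adherens junctions. It had 91.1, 110 and 108 normalized CPM in PBS and 66.1, 82.8 and 73.5 in AF-PTK@LEV@SPP1. The groups did not overlap, and the difference of -0.44 in log2 (95% interval -0.81 to -0.06) had an adjusted p of 0.154 in edgeR and of 0.0452 with the 6 libraries kept. Vwf encodes von Willebrand factor, the platelet-binding glycoprotein stored in Weibel-Palade bodies. It had 53.7, 62.6 and 67.8 normalized CPM in PBS and 41.9, 38.6 and 40.6 in AF-PTK@LEV@SPP1. The AF-PTK@LEV@SPP1 libraries were close to each other and all below PBS, with a log2 difference of -0.57 (standard error 0.13, adjusted p = 0.0762 from edgeR, 0.0167 with the 6 libraries kept).

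The receptors of vascular growth factors come next, and whether they differ from the 3 genes above was not tested. Kdr, the VEGF receptor through which most endothelial growth signals pass, had 56.0, 62.1 and 55.2 normalized CPM in PBS and 51.4, 66.0 and 58.9 in AF-PTK@LEV@SPP1. The groups overlapped and their means were 57.3 ± 1.89 (SD, n = 2) and 58.8 ± 7.32 (SD, n = 3). The log2 difference of 0.03 had a 95% interval of -0.32 to 0.37, so a change of the size seen in the selectins lay outside it. Flt1, a VEGF receptor that binds the ligand tightly and signals weakly, had 68.5, 84.6 and 85.1 in PBS and 94.3, 64.7 and 76.5 in AF-PTK@LEV@SPP1, also overlapping, with a log2 difference of 0.03 (95% interval -0.48 to 0.53). Tek, the angiopoietin receptor Tie2, had 65.2, 56.6 and 55.3 in PBS and 51.0, 66.3 and 63.5 in AF-PTK@LEV@SPP1, with a log2 difference of -0.02 (95% interval -0.41 to 0.38). The fitted signs of these 3 genes differed between the alternatives run. Tek overlaps Eqtn on the opposite strand in the authors' annotation, and reads of the pair cannot be told apart without the strand setting of the counting.

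Summed over the 6 identity genes, normalized CPM was 530, 651 and 639 in PBS and 439, 466 and 476 in AF-PTK@LEV@SPP1. Over these genes 0 were called in edgeR, 3 were lower at an unadjusted p under 0.05 (13.0% of all genes were), and DESeq2 and limma-voom called 2 and 0. Their median log2 fold change was -0.23, against 0.05 over all genes tested. The sum includes Pecam1, which platelets and some leukocytes also carry. In bulk tissue, the number of endothelial cells, the RNA per endothelial cell and the part of other cells cannot be told apart.

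Sele encodes E-selectin, which endothelial cells display once cytokines activate them. Its level was 39.0, 43.7 and 44.2 normalized CPM in PBS (760, 680 and 724 counts) and 5.46, 6.45 and 8.42 in the AF-PTK@LEV@SPP1 replicates (93, 107 and 148 counts). The PBS libraries lay close together and every AF-PTK@LEV@SPP1 library was far below them. The means were 41.5 ± 3.50 (SD, n = 2) and 6.78 ± 1.51 (SD, n = 3), a ratio of 6.12, and the log2 fold change was -2.62 (standard error 0.21, 95% interval -3.15 to -2.09, adjusted p = 0.0174 from edgeR).

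Selp encodes P-selectin, which endothelial cells and platelets store and release to the surface. It had 47.5, 52.7 and 55.8 normalized CPM in PBS (925, 819 and 915 counts) and 5.70, 9.94 and 9.68 in AF-PTK@LEV@SPP1 (97, 165 and 170 counts). Its groups were as far apart as those of Sele, with means of 50.8 ± 4.79 (SD, n = 2) and 8.44 ± 2.38 (SD, n = 3), a ratio of 6.03. The log2 fold change was -2.60 (standard error 0.26, 95% interval -3.27 to -1.93, adjusted p = 0.0221 from edgeR). For both selectins the exact permutation test gave its smallest two-sided p, 0.10. Without AF-PTK@LEV@SPP1 replicate 2 the adjusted p from edgeR was 0.0733 for Sele and 0.0737 for Selp, and without replicate 3 it was 0.127 and 0.136, while the log2 fold changes stood between -2.80 and -2.58.

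Icam1 encodes ICAM-1, the ligand of the leukocyte β2 integrins, which fibroblasts, macrophages and other cells make as well as endothelium. It had 54.8, 54.1 and 51.0 normalized CPM in PBS and 39.6, 28.1 and 26.8 in AF-PTK@LEV@SPP1. All AF-PTK@LEV@SPP1 libraries were below PBS, replicate 1 least so. The log2 difference of -0.78 (standard error 0.20) had an adjusted p of 0.0942 in edgeR, of 0.0266 with the 6 libraries kept and of 0.0158 in DESeq2.

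Vcam1 encodes VCAM-1, the ligand of the α4β1 integrin, which stromal cells and macrophages can also make. It had 60.2, 21.0 and 23.0 normalized CPM in PBS and 44.0, 139 and 92.6 in AF-PTK@LEV@SPP1. PBS replicate 1 lay above AF-PTK@LEV@SPP1 replicate 1, so the groups overlapped, and the spread within each group was wide (41.1 ± 27.0, SD, n = 2 and 92.0 ± 47.7, SD, n = 3). Its log2 difference of 1.16 had a 95% interval of -0.44 to 2.76 and did not pass in edgeR (adjusted p = 0.310). That difference changed with the library left out, at 1.46 without AF-PTK@LEV@SPP1 replicate 1 and 0.73 without AF-PTK@LEV@SPP1 replicate 2. The 4 adhesion genes therefore did not move as a block: 2 were called lower, Icam1 was lower without passing, and Vcam1 had a fitted value above 0 in every alternative run.

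**Figure D2:**
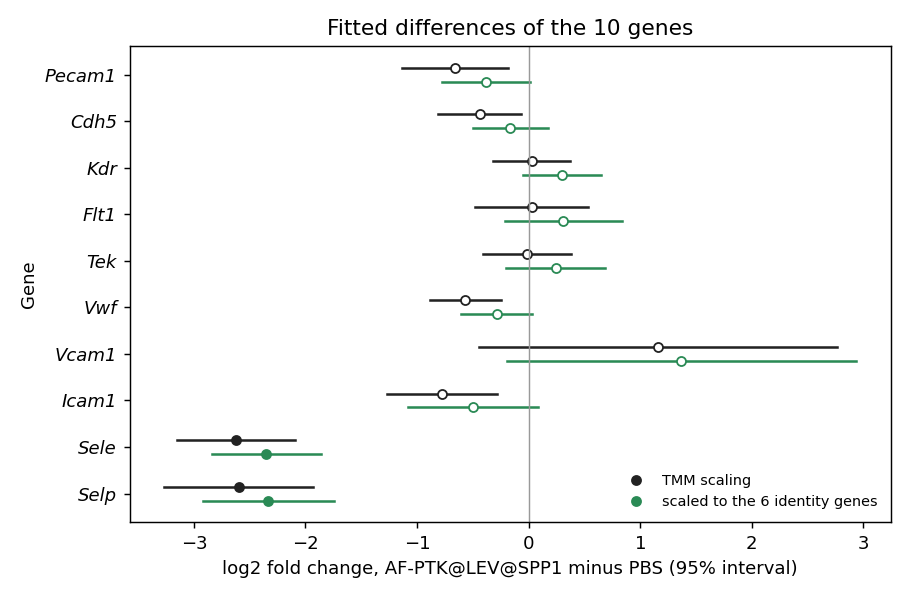
The log2 fold change of AF-PTK@LEV@SPP1 against PBS (horizontal axis) of each gene (vertical axis), as points with 95% intervals from edgeR's quasi-likelihood fit, under TMM scaling (black) and scaled to the 6 identity genes (green), filled at an adjusted p under 0.05. Sele and Selp stand near -2.6 and -2.3 under the 2 scalings, and the intervals of Kdr, Flt1, Tek and Vcam1 span 0 in both.

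To set the adhesion genes beside the endothelial genes of the same library, their reads were counted per 100 reads of Pecam1. This ratio compares libraries, not the abundance of the transcripts, since no transcript lengths were used. Sele had 19.98, 15.9 and 16.5 reads per 100 Pecam1 reads in PBS and 4.06, 4.37 and 5.18 in AF-PTK@LEV@SPP1, which is 3.99 times more in PBS on the means. Selp had 24.3, 19.1 and 20.9 against 4.23, 6.75 and 5.95. For both selectins the libraries stayed apart when counted against Pecam1. Icam1 had 28.1, 19.6 and 19.1 against 29.4, 19.1 and 16.5, and these overlapped. Vcam1 had 30.8, 7.60 and 8.61 against 32.7, 94.6 and 56.9, higher in each AF-PTK@LEV@SPP1 library than in any of PBS.

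These readings depend in part on the gene counted against, since Pecam1 itself was lower. Per 100 reads of Kdr, Icam1 had 97.9, 87.1 and 92.4 in PBS and 77.0, 42.6 and 45.6 in AF-PTK@LEV@SPP1, and its groups were also apart against Flt1 and Tek, with ratios of means of 1.70, 1.77 and 1.64 for the 3. Against Cdh5, Vwf and the 6 identity genes summed its groups overlapped. Vcam1 was apart against Pecam1 and Cdh5 and overlapped against the other 4 and the sum. Sele and Selp stayed apart against all 6 and the sum, with ratios for Sele from 3.99 against Pecam1 to 6.26 against Kdr.

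A fit scaled to the geometric mean of the 6 identity genes, chosen after seeing the data, moved the median of all genes from 0.05 to 0.32 in log2 and the calls from 175 higher and 400 lower to 372 higher and 254 lower. In it Sele had a log2 difference of -2.35 (adjusted p = 0.0161 from edgeR) and Selp of -2.33 (adjusted p = 0.0190), both called lower against the identity genes. Icam1 had -0.50 (adjusted p = 0.206) and Vcam1 1.37 (adjusted p = 0.203), neither called.

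Sele and Selp lie on the same chromosome. In the authors' annotation, whose rat build is not named, Sele lies on chromosome 13 from 76403304 to 76412741 and Selp from 76476295 to 76511845, both on the plus strand. The gene after Selp, F5, named for its position, encodes coagulation factor V and had 91.5, 124 and 117 in PBS and 57.1, 100 and 140 in AF-PTK@LEV@SPP1. F5 was not called, and its groups overlapped.

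Other genes of endothelial identity were read next. Of 34 measured, all were tested, 1 was called lower and 0 higher in edgeR, with 9 lower and 4 higher at an unadjusted p under 0.05 (13.0% and 12.4% of all genes). DESeq2 called 8 lower and 2 higher (9.27% and 7.29% of all genes), and limma-voom called 0. The gene called was Ecscr, a regulator of endothelial chemotaxis, with 15.8, 23.5 and 23.7 normalized CPM in PBS and 5.52, 5.97 and 8.31 in AF-PTK@LEV@SPP1 (log2 fold change -1.59, adjusted p = 0.0483 from edgeR). Cd93, the most abundant in PBS, had 194, 272 and 281 against 108, 99.9 and 128, a log2 difference of -1.08 just short of the threshold (adjusted p = 0.0581 from edgeR). In AF-PTK@LEV@SPP1 Ptprb, a phosphatase of endothelial junctions, was above it, with 132, 173 and 169 in PBS and 125, 163 and 150 in AF-PTK@LEV@SPP1. The median of the 34 was -0.20, against 0.05 over all genes tested. The list as a whole summed to 1410, 1694 and 1700 normalized CPM in PBS and to 1077, 1246 and 1316 in AF-PTK@LEV@SPP1. The part of cells other than endothelium in this sum was not tested. In the same list Tal1, which erythroid precursors also express, had 11.6, 6.56 and 7.14 in PBS and 10.5, 70.5 and 37.6 in AF-PTK@LEV@SPP1. It is named after its values were seen, since its high libraries are also those with high erythroid markers.

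Genes that mark parts of the vascular tree were read by list, and the lists were not tested against each other. Of 12 arterial markers 1 was called in edgeR, the Notch ligand Jag1, with 53.3, 57.4 and 62.7 normalized CPM in PBS and 27.1, 30.4 and 32.6 in AF-PTK@LEV@SPP1 (log2 fold change -0.93, adjusted p = 0.0330 from edgeR). DESeq2 called 3 arterial markers lower and limma-voom 1, and 3 lower and 1 higher had an unadjusted p under 0.05 in edgeR. Of 8 venous markers, which include Selp, Vcam1 and Vwf, edgeR and limma-voom on the 5 samples called Selp, and DESeq2 called Selp and Vwf. Of 12 tip cell markers, the genes of sprouting endothelium, 1 was called higher and 2 lower in edgeR, with 1 higher and 7 lower at an unadjusted p under 0.05, and DESeq2 called 1 higher and 5 lower. With limma-voom 1 was higher and 1 lower, without Col4a1 (adjusted p = 0.0512). Esm1, a proteoglycan secreted by endothelial cells under VEGF, had 13.1, 10.7 and 8.66 normalized CPM in PBS and 30.1, 42.7 and 38.4 in AF-PTK@LEV@SPP1, and rose by 1.70 in log2 (adjusted p = 0.0316 from edgeR). It went up while Plaur, the urokinase receptor, went down, at 32.9, 39.5 and 46.2 against 13.3, 13.8 and 14.5 (log2 fold change -1.46, adjusted p = 0.0221 from edgeR). Col4a1, a collagen of basement membranes that many cells make, was the most abundant of the list and was also called lower, with a log2 difference of -1.29 (adjusted p = 0.0475 from edgeR).

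Of 10 capillary markers tested, 0 were called in edgeR, with 6 higher and 1 lower at an unadjusted p under 0.05 (12.4% and 13.0% of all genes), while DESeq2 called 5 higher and 1 lower (7.29% and 9.27% of all genes) and limma-voom 0. Their most abundant gene, Fabp4, is also an adipocyte gene and had 239, 47.3 and 52.5 normalized CPM in PBS and 543, 756 and 397 in AF-PTK@LEV@SPP1. Adipocyte markers summed to 380, 70.4 and 70.5 in PBS and 834, 1452 and 601 in AF-PTK@LEV@SPP1, led by Cfd in each PBS library and by Adipoq in each of AF-PTK@LEV@SPP1, and the part of adipose cells in the capillary values was not tested. Of 8 lymphatic markers tested, 0 were called in edgeR, with 2 higher and 1 lower at an unadjusted p under 0.05. DESeq2 called 1 of them in each direction and limma-voom 0, and the most abundant, Sema3d, overlapped between the groups.

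Of 15 pericyte and smooth muscle markers 1 was called, lower, while 9 were fitted above 0 and the median log2 difference was 0.38. At an unadjusted p under 0.05 edgeR had 3 higher and 4 lower, DESeq2 called 1 higher and 3 lower, and limma-voom 0. The gene called was Kcnj8, a potassium channel of pericytes, which had 17.8, 26.5 and 25.0 in PBS and 7.64, 10.2 and 8.08 in AF-PTK@LEV@SPP1 (log2 fold change -1.34, adjusted p = 0.0483 from edgeR). The most abundant in PBS, Pdgfrb, a growth factor receptor that fibroblasts also carry, had 197, 282 and 294 in PBS and 129, 141 and 125 in AF-PTK@LEV@SPP1, without overlap, and its log2 difference of -0.89 had an adjusted p of 0.0736 in edgeR and of 0.00103 in DESeq2. Ndufa4l2, a mitochondrial protein also found in other cells and the most abundant in AF-PTK@LEV@SPP1, had 165, 200 and 203 in PBS and 676, 277 and 458 in AF-PTK@LEV@SPP1. Its groups did not overlap, and its log2 difference of 1.35 had an adjusted p of 0.127 in edgeR and of 0.0130 in DESeq2. The list summed to 1359, 1723 and 1749 normalized CPM in PBS and to 2990, 1585 and 1687 in AF-PTK@LEV@SPP1.

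Growth factors that act on the receptors showed no called gene in edgeR or limma-voom on the 5 samples. Of 12 VEGF and angiopoietin ligands and co-receptors, 0 were called in edgeR and 3 were lower at an unadjusted p under 0.05. DESeq2 called 1 lower and limma-voom 0, while edgeR with the 6 libraries kept called 2 lower. Vegfa, the main ligand of Kdr and the most abundant, had 151, 354 and 363 normalized CPM in PBS and 495, 181 and 292 in AF-PTK@LEV@SPP1. These overlapped widely, as did the receptors Kdr and Flt1.

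**Figure D3:**
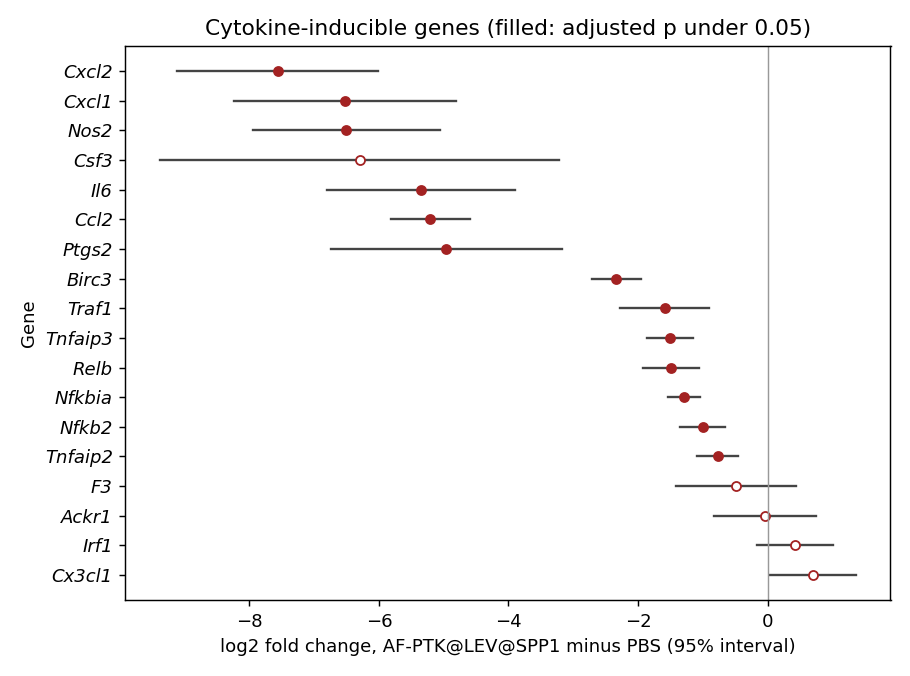
The log2 fold change of AF-PTK@LEV@SPP1 against PBS (horizontal axis) of 18 cytokine-inducible genes (vertical axis), with 95% intervals from edgeR's quasi-likelihood fit, filled at an adjusted p under 0.05. The 13 filled points all lie below 0, in a list chosen with earlier results of these data known.

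The genes that cytokines induce in endothelium, and in many other cells, were read beside the selectins. This list was chosen with earlier results of these data known. The study had already reported Nos2, Cxcl1, Cxcl2 and Il6, among others, as lower in the same libraries. Counts over the list are thus a description and no independent support for the selectin values. Of 18, 13 were called lower and 0 higher in edgeR, with 14 lower and 1 higher at an unadjusted p under 0.05, while DESeq2 called 14 lower and limma-voom 8 lower, and neither called any higher. They had a median log2 difference of -1.55 against 0.05 over all genes tested, and without AF-PTK@LEV@SPP1 replicate 2 or 3 edgeR called none, as in those fits no gene was. Nos2, the inducible nitric oxide synthase and the most abundant in PBS, had 197, 300 and 306 normalized CPM in PBS and 1.06, 3.86 and 3.42 in AF-PTK@LEV@SPP1, where the NF-κB inhibitor Nfkbia was the highest, with 100, 100 and 97.4 against 41.9, 38.9 and 41.7. Cxcl1 and Cxcl2, chemokines that draw neutrophils, had 50.5 to 107 and 27.3 to 72.0 in PBS and at most 1.31 and 0.398 in AF-PTK@LEV@SPP1. Il6, a cytokine of acute inflammation, had 8.41, 18.4 and 16.5 in PBS and 2, 6 and 8 counts in the AF-PTK@LEV@SPP1 libraries. The log2 differences of these 4 genes were -6.50 for Nos2, -6.52 for Cxcl1, -7.56 for Cxcl2 and -5.36 for Il6 (adjusted p = 0.0196, 0.0221, 0.0182 and 0.0230 from edgeR), and none of them is limited to endothelial cells. In limma-voom Nos2 and Cxcl1 passed, while Cxcl2 and Il6 did not (adjusted p = 0.0703 and 0.0578). Cxcl1 and Cxcl2 are close relatives, so reads could have been split between them. Irf1, Cx3cl1, F3 and Ackr1, of the same list, were not called in any direction, and Csf3 missed the threshold (adjusted p = 0.0603 from edgeR).

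The partners of the adhesion molecules on leukocytes were not called. Of 11 integrins and selectin ligands, 0 were called in edgeR, DESeq2 or limma-voom, and 0 had an unadjusted p under 0.05. Their median log2 difference was 0.06. The most abundant, Itgb1, the β1 chain of the VCAM-1 receptor and of matrix receptors in most cells, had 757, 1050 and 1067 in PBS and 803, 529 and 590 in AF-PTK@LEV@SPP1, which overlapped. Selplg, the P-selectin ligand PSGL-1, had 39.1, 21.8 and 22.6 normalized CPM in PBS and 8.64, 27.2 and 33.3 in AF-PTK@LEV@SPP1. Itgal, a chain of the ICAM-1 receptor LFA-1, had 44.6, 16.0 and 15.6 against 15.3, 41.9 and 37.3. Both were named as partners of the adhesion genes after their values were seen, and in both the high libraries were PBS replicate 1 and AF-PTK@LEV@SPP1 replicates 2 and 3. Of 11 junction and transmigration molecules tested, 0 were called in edgeR, 2 were lower at an unadjusted p under 0.05, and DESeq2 and limma-voom called 1 and 0. The most abundant of these, Cd47, overlapped between the groups.

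Blood and muscle markers differed between libraries of the same group. Neutrophil markers, of which 10 of 11 were tested and Ltf had at most 1 count, summed to 1227, 197 and 185 normalized CPM in PBS and to 320, 3180 and 4284 in AF-PTK@LEV@SPP1, with S100a9 the most abundant. Erythroid markers summed to 377, 359 and 393 in PBS and 336, 3609 and 2088 in AF-PTK@LEV@SPP1, led by Hbb. Skeletal muscle markers summed to 1403, 1764 and 1782 against 1284, 13191 and 3587, led by Myh4 in each PBS library and by Acta1 in the others. AF-PTK@LEV@SPP1 replicates 2 and 3 thus held more of all 3 kinds of transcript than replicate 1. In edgeR 0 of these markers were called, 1 erythroid marker had an unadjusted p under 0.05, and DESeq2 called 3 erythroid markers and limma-voom 0.

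Vcam1 was highest in the same AF-PTK@LEV@SPP1 libraries, whereas Sele and Selp were at 5.46 to 9.94 normalized CPM in all 3. The part of these cells in the Vcam1 values was not tested. Macrophage and monocyte markers summed to 3227, 2187 and 2163 in PBS and to 729, 2047 and 2066 in AF-PTK@LEV@SPP1, led by Lyz2, and Marco was at 0 counts. Of 13 tested 2 were called in edgeR and limma-voom and 4 in DESeq2, all lower, and 4 were lower at an unadjusted p under 0.05. The 2 were Cd68 and Cd14, with log2 differences of -1.97 and -1.89 (adjusted p = 0.0231 and 0.0119 from edgeR). Since Selp is also a platelet gene, platelet markers were read: 10 of 11 were tested, Gp1bb was at 0 counts, and the list summed to 204, 118 and 115 normalized CPM in PBS and to 54.9, 121 and 96.8 in AF-PTK@LEV@SPP1. Although this sum was not higher, 8 of the 10 were fitted above 0, with a median log2 difference of 2.25. In edgeR 0 were called, with 3 higher and 1 lower at an unadjusted p under 0.05, and DESeq2 called 2 higher and 1 lower and limma-voom 0. Their most abundant gene, Itgb3, which is not limited to platelets, had 147, 73.1 and 70.9 in PBS and 36.6, 50.4 and 32.3 in AF-PTK@LEV@SPP1, and the part of platelets in the Selp values was not tested.

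The promoters of the 10 genes were searched for motifs, since several of these genes are known to respond to cytokines. The RefSeq table of promoters (build GRCr8), with 250 bases before and 50 after each start, held 5 of the 10: Kdr, Flt1, Vcam1, Icam1 and Sele. The κB motif of NF-κB, on either strand, matched in Kdr, Flt1 and Vcam1, and in 4.18% of all 33469 promoters. TATAAA on the gene strand matched in Flt1, Vcam1 and Icam1, and in 8.80% of all promoters. TGANTCA and AGATAA, on either strand, matched in none of the 5, against 7.33% and 11.6% of all promoters, and CNGGAA matched in Kdr, Vcam1, Icam1 and Sele and in 60.0% of all. A match is a description of these letters and not a site, and a window without one says nothing of the factor. For Flt1, Icam1 and Sele the 150 bases before the start all lie inside the annotated span of the gene, so none are printed.

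The bases before the annotated gene are shown for Vcam1 and Kdr, an adhesion gene and a receptor whose levels were not called, to show what their windows hold. Capitals mark the κB match and, in Vcam1, also TATAAA. The bases printed for Vcam1 are chr2:206742784-206742933, minus strand, where the κB letters at -93 to -84 match on both strands. Those printed for Kdr are chr14:32571913-32572030, plus strand, with its κB letters at -88 to -79, and they stop 32 bases before the start.
Vcam1: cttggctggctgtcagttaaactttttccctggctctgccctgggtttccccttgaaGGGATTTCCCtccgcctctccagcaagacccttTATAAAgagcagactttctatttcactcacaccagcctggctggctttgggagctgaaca
Kdr: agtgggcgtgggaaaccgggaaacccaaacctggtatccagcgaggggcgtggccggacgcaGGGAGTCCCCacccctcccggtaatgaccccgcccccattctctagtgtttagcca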

How the data were processed

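Rat tail disc RNA was sequenced in 6 libraries. The authors deposited raw counts, whole numbers of reads per Ensembl rat gene, without normalization. The submitters' processing notes name FastQC, Trimmomatic, HISAT2, featureCounts and DESeq2, and mm10, a mouse build, although the identifiers are of rat. Versions, strand setting and treatment of shared reads are not given in the sources used here. Here the counts of PBS replicates 2 and 3 were summed, and genes passing filterByExpr (minimum count 10) were fitted with TMM scaling and edgeR 4.0.16's quasi-likelihood test in R 4.3.3, which gave Benjamini-Hochberg adjusted p-values over all genes tested. Alternatives were DESeq2 1.42.0, limma-voom (limma 3.58.1), a robust fit, other scalings, filters and thresholds, the 6 libraries kept, the replicate block and each library left out. Exact permutation tests used log2 of normalized CPM plus 0.1. The 10 genes and the lists were chosen with earlier results of these data known. Named were the 10 genes and Spp1, and from each list up to 4 called genes with the largest change and at least 1 normalized CPM, the most abundant gene and markers at or under 3 counts. Outside that rule, F5 and Eqtn were named for their position, and Irf1, Cx3cl1, F3, Ackr1, Csf3, Tal1, Selplg, Itgal and genes leading in 1 group after their values were seen. List genes with no match by name, synonym or identifier were not used here, and 1 gene is not reported here. Totals of 15560728 to 17942989 counts set the precision, and intervals of 3 counts cover counting error only.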

Additional observations from a re-analysis of the deposited data

How the results depend on the processing

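With the 6 libraries kept, 2727 genes were called (1233 higher, 1494 lower) and 6 of the 10 endothelial and adhesion genes. With DESeq2 2572 were called (1132 higher, 1440 lower) and 5 of the 10. At an adjusted p under 0.10, 1687 were called (687 higher, 1000 lower) and 4 of the 10. Scaled to the 6 identity genes, an alternative chosen after seeing the data, 372 were higher and 254 lower. Leaving out each library gave 0 to 566 genes called (0 to 170 higher, 0 to 396 lower) and 0 to 2 of the 10. The causes of these shifts were not tested, beyond that fewer samples were fitted when a library was left out.

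For same-numbered libraries, the correlations of their deviations from the group means were -0.33, -0.28 and -0.08. These values cannot decide whether same-numbered libraries pair, since they are not independent. The near-identical PBS libraries had nearly the same correlations with each library of the other group, opposite in sign to those of the remaining PBS library. With the 6 libraries kept and the replicate block added, 741 genes were called (307 higher, 434 lower) and 2 of the 10, Sele and Selp (adjusted p = 0.0226 and 0.0259 from edgeR), against 2727 and 6 without the block. Both of these fits count the near-identical PBS libraries as 2 samples.

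Of 17 alternatives, Sele and Selp were called in 15, where their log2 fold changes were -2.71 to -2.35 and -2.70 to -2.33. Of the 15, the fit without PBS replicate 1 had 1 distinct PBS sample, and those without PBS replicate 2 or 3 lost a near-copy, so these 3 say nothing of stability. Pecam1, Vwf and Icam1 were called in 2 each and Cdh5 in 1, all lower, and Kdr, Flt1, Tek and Vcam1 in 0 under any tool run. In the edgeR test of the report their unadjusted p was 0.124 or more, and for Vcam1 0.0450 with the 6 libraries kept (adjusted p = 0.128). Called among the 34 other identity genes were 0 to 10, among the 18 inducible genes 0 to 14 and among the 15 pericyte markers 0 to 4. CPM without TMM moved the level of all 10 genes by less than 1 SD. Promoter motifs had no alternative.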

Other observations

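Markers of other disc cells were read in the same libraries. Nucleus pulposus and notochord markers, of which 8 of 9 were tested and Noto was at 0 counts, summed to 855, 443 and 436 normalized CPM in PBS and to 4340, 1584 and 1903 in AF-PTK@LEV@SPP1, led by Cd24. In edgeR 0 were called, with 5 higher and 1 lower at an unadjusted p under 0.05, and DESeq2 called 5 higher and 1 lower and limma-voom 0. Schwann cell markers summed to 221, 294 and 288 in PBS and 384, 1020 and 1537 in AF-PTK@LEV@SPP1, led by Pmp22, with 0 of 8 called in edgeR, 6 higher at an unadjusted p under 0.05, 6 higher in DESeq2 and 0 in limma-voom. Among 8 fibroblast markers edgeR and limma-voom each called 1, lower, DESeq2 called 4 lower and 1 higher, and 4 lower and 1 higher had an unadjusted p under 0.05 in edgeR. The 1 called was the matrix proteoglycan gene Lum, which had 2472, 5917 and 5949 normalized CPM in PBS and 324, 444 and 436 in AF-PTK@LEV@SPP1 (log2 fold change -3.40, adjusted p = 0.0303 from edgeR). The most abundant fibroblast gene, Fn1, had 11959, 27240 and 26967 against 6862, 4847 and 6434, and its log2 fold change of -1.70 did not pass (adjusted p = 0.107).

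Of 9 markers of T and NK cells 2 were called lower in edgeR, with 5 lower at an unadjusted p under 0.05, and DESeq2 called 4 lower and limma-voom 1. The 2 were the CD8 chains Cd8a and Cd8b, with log2 differences of -2.19 and -2.73 (adjusted p = 0.0363 and 0.0427 from edgeR, 0.0413 and 0.0652 from limma-voom). Cd8b had 26, 31 and 43 counts in PBS and 5, 5 and 4 in AF-PTK@LEV@SPP1, so its level rests on few reads. Cd4, the most abundant and also expressed by macrophages, had 149, 81.1 and 80.8 normalized CPM in PBS and 65.4, 84.1 and 71.5 in AF-PTK@LEV@SPP1. Of 13 chondrocyte markers, 0 were called in edgeR, 3 were lower at an unadjusted p under 0.05 and DESeq2 and limma-voom called 2 and 0. Of 9 annulus and tendon markers, 0 were called in edgeR, 1 was higher at an unadjusted p under 0.05 and DESeq2 and limma-voom called 2 and 0. Of 10 adipocyte markers, 0 were called in edgeR, 6 were higher at an unadjusted p under 0.05 and DESeq2 and limma-voom called 6 and 0. The most abundant in each PBS library, Cfd, had 110, 25.1 and 23.7 normalized CPM in PBS and 123, 177 and 120 in AF-PTK@LEV@SPP1, and Adipoq, the most abundant in the latter, had 106, 10.3 and 9.88 against 296, 587 and 195.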
